A study of Mus musculus with 23 samples.

Results

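In 3T3-L1 preadipocytes, some peaks of accessible chromatin tied to a gene were detected on the first day after siRNA transfection and not on the next days. The 1881 peaks described here are those that the authors tied to a gene on day -2, whose gene was named for no peak on day -1 or day 0, and which overlapped no peak of those days by a single base. They make up 1881 of the 12268 gene-linked (promoter-class) peaks of day -2, and belong to 1660 of the 11026 genes named that day. Of these genes, 1457 had 1 such peak, 186 had 2, 16 had 3, and Nrg1, which encodes the growth factor neuregulin, had 4. The peaks were chosen by their detection on 1 day, so their low counts and their absence later describe the choice and were not tested.

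ATAC-seq uses a transposase that cuts open DNA and leaves sequencing adapters there, so that read counts follow accessibility. 3T3-L1 is an established mouse fibroblast-like line that can be turned into fat cells. On day -3, sub-confluent cells received 50 nM siRNA with Lipofectamine RNAiMAX, either a non-targeting siRNA (scramble) or one against Kdm5c. Nuclei were collected 24 hours later on day -2, 48 hours later on day -1 and 72 hours later on day 0. There were 23 libraries, 4 per arm and day except 3 for Kdm5c siRNA on day 0, and all groups share the line and the transfection. Separate cultures are not stated for the replicates, and p-values therefore cover the spread among these libraries alone, which may be technical.

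A promoter is the stretch of DNA around the site where transcription of a gene starts. Promoters of genes used in most cells are often rich in CpG dinucleotides and broadly open, whereas those of tissue-restricted genes are often CpG-poor or held closed outside their tissue. KDM5C is an X-linked demethylase that takes methyl groups off lysine 4 of histone H3, a mark of active promoters, and it has been tied to the silencing of germline genes outside the germline.

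A few of the start-site windows are shown because they span the range of CpG content among these genes and cover a peak on which the results below turn. Each holds 250 bases before and 50 after a RefSeq start site on GRCm38.p6, is written 5′ to 3′ along the gene's strand, and has its CpG dinucleotides in capitals. Irf5, the interferon regulatory factor of highest count, had 35 CpGs at chr6:29526375-29526674 (plus strand). Foxn4, a forkhead factor, had 22 at chr5:114273712-114274011 (minus strand). Dmc1, the recombinase of meiosis, had 18 at chr15:79605060-79605359 (minus strand). Mc3r, a melanocortin receptor, had 14 at chr2:172248242-172248541 (plus strand). Cd300lb, a receptor of myeloid cells, had 4 at chr11:114934322-114934621 (minus strand). Aqp7, the glycerol channel of fat cells, had 3 at chr4:41047913-41048212 (minus strand).
Irf5: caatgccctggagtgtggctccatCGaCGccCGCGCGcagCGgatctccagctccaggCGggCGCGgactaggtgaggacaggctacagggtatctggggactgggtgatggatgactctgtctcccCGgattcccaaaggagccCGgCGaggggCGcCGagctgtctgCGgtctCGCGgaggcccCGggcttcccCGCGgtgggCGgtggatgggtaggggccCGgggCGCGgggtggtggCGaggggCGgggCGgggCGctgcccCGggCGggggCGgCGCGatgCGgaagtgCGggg
Foxn4: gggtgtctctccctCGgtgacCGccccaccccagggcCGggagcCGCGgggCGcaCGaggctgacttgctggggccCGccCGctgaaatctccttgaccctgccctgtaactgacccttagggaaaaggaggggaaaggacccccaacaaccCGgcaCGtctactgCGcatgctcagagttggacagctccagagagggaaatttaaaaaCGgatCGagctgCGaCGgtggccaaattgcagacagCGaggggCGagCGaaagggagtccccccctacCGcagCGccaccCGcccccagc
Dmc1: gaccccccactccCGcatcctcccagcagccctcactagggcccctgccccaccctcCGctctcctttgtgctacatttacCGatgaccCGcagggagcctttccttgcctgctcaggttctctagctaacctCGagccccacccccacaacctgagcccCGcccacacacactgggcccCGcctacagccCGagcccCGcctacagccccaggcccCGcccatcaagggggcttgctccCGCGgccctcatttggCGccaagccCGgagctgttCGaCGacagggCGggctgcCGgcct
Mc3r: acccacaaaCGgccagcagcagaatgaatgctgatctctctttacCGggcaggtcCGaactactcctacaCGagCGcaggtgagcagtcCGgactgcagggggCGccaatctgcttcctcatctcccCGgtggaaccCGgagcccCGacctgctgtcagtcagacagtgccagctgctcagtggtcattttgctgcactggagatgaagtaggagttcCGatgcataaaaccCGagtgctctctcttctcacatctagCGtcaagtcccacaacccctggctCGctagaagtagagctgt
Cd300lb: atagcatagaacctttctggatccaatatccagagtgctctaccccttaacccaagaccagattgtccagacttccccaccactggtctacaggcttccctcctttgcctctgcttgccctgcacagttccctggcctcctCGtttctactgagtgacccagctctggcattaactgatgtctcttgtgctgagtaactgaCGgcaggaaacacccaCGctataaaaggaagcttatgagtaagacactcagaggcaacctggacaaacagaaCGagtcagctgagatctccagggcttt
Aqp7: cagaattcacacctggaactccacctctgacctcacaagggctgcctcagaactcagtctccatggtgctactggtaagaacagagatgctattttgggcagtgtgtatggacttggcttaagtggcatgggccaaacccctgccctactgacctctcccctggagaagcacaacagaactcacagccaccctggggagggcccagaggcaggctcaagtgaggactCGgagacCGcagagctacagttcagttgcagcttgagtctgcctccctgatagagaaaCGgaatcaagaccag

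Of microRNA and small RNA genes named on day -2, 44.3% (98 of 221) were named that day only, against 15.1% of all genes. Their peaks had a median mean count of 10.3. Among all promoter-class peaks with mean counts of 8 to 12, the share was 61.1%. MicroRNA genes supplied 87 of the 1660 genes, with 94 peaks, and 75 of the 87 had a hairpin in the RefSeq table. Their 82 peaks lay a median of 282.5 bases from the hairpin, and 15 overlapped it. Mature sequences of 5 are shown with the seed, bases 2 to 8, in capitals. The first 4 were picked from the 87 as microRNAs known from other tissues (skeletal muscle, epithelium, red blood cells and neurons, in this order). They do not stand for the rest. The last, miR-7037, was the microRNA whose arms did not overlap. No 2 of the 5 shared a seed.
mmu-miR-206-3p: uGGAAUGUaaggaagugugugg
mmu-miR-141-3p: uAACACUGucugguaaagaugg
mmu-miR-144-3p: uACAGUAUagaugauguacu
mmu-miR-9-5p: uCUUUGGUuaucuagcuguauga
mmu-miR-7037-5p: aAGGUGGCcacaggagaucauggu

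Sequencing depth and 1 library bear on everything that follows. A library of day -2 held 1816082 to 3345583 nuclear counts, one of day -1 held 781309 to 1446979, and one of day 0 held 1088968 to 2525925. A weak peak can be missed at lower depth, so day and depth cannot be told apart as the source of a peak's absence later. Mitochondrial peaks took 56.4% to 70.0% of counts in the Kdm5c siRNA libraries of day -2 and 70.4% to 76.3% in the scramble libraries, so that share did not overlap between arms. Its part in the results was not tested. Kdm5c siRNA replicate 2 stood apart and was the deepest library in nuclear counts. It had the highest normalised count (raw count divided by relative effective library size) at 838 of the 1881 peaks (44.6%), against 81 to 212 for each of the others. The counts of peaks and the fold changes at these peaks are therefore given with and without it. The Kdm5c gene's own peak at chrX:152232661-152233232 had normalised counts of 44.6, 59.6, 65.4 and 27.5 with Kdm5c siRNA and 46.8, 57.7, 84.8 and 53.9 with scramble. The arms overlapped there (log2 fold change -0.28, SE 0.21, edgeR adjusted p = 0.98), and as siRNA acts on mRNA this peak does not check the knockdown.

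The peaks were small. Their mean raw count per library had a median of 10.4 (quartiles 7.88 and 14.25, range 3.75 to 94.0), against 68.6 for the 9714 promoter-class peaks shared in gene and position with a later day. The median width was 173 bases against 757. Per kilobase the difference was smaller, with median normalised counts of 59.3 and 91.0. Peaks with no gene that were also seen on day -2 only numbered 51461 and had a median count of 8.75 and a median width of 161 bases. In count and width the promoter peaks thus lay close to the other peaks seen on that day alone. Among all promoter-class peaks of day -2, those named that day only made up 62.5% below a mean count of 8, 61.1% from 8 to 12, 42.9% from 12 to 20, 11.5% from 20 to 40, and 0.347% from 40 to 80.

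**Figure D1:**
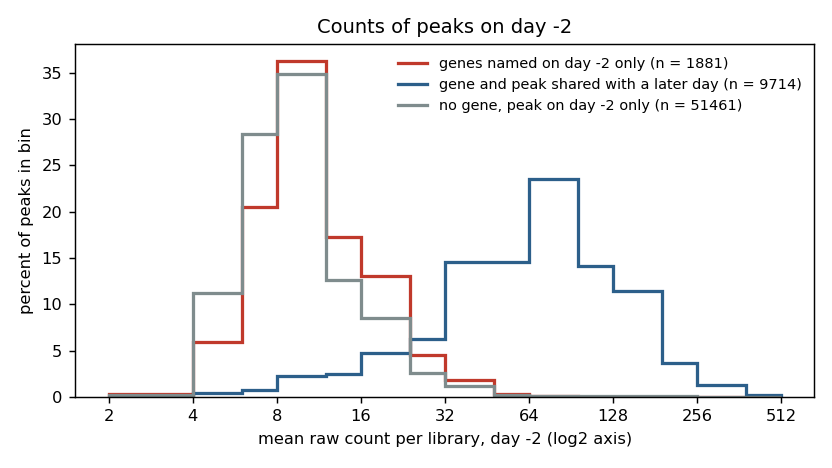
Distribution of the mean raw count per library on day -2 (x axis, log2 scale) for 3 classes of peaks, as the percent of each class per bin (y axis). The promoter peaks of genes named on day -2 only have a median of 10.4, close to the 8.75 of gene-less peaks of that day alone and below the 68.6 of promoter peaks shared with a later day.

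The distance to the nearest peak of a later day had a median of 12055 bases (quartiles 4617 and 30753), and 146 peaks (7.76%) lay within 1 kb of one. The nearest was a peak of Dll4, a Notch ligand, at 42 bases and a mean count of 9.63. Just outside the rule stood 51 peaks whose gene was named on day -2 only but which did overlap a later peak. Their median count was 35.5 and their median width 536 bases. The smallest of these overlaps was 3 bases, at Actg1, which encodes a cytoskeletal actin, with a mean count of 28.4.

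Many of the peaks lay beside a start site rather than on it. A RefSeq window of the same gene was found for 1239 peaks (65.9%). The start site fell inside the peak in 25.1% of these, against 85.3% of the shared promoter peaks. The median distance was 150 bases, and 89.1% lay within 1 kb. Lying off the start site was not particular to genes named that day only: among 451 matched peaks seen on day -2 alone whose gene was also named later, 8.87% held the start site, and the median distance was 410 bases. Peaks over the start site were the larger ones, with a median count of 14.25 and width of 232 bases in 311 peaks, against 9.63 and 162 in the other 928. The 300-base windows held a median of 14 CpGs, against 22 for shared promoters and 7 for all 32851 RefSeq windows. The ratio of observed to expected CpG had medians of 0.56, 0.80 and 0.38 in the same order. It reached 0.6 in 46.0% of the windows, against 80.3% of those of shared promoters. Among peaks with mean counts of 8 to 20, the medians were still 14 CpGs for 774 peaks of genes named that day only and 19 for 511 shared ones. Start sites lay inside 22.9% and 31.7% of these. At matched count the gaps in position and in CpGs were both narrower, and both were still present.

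**Figure D2:**
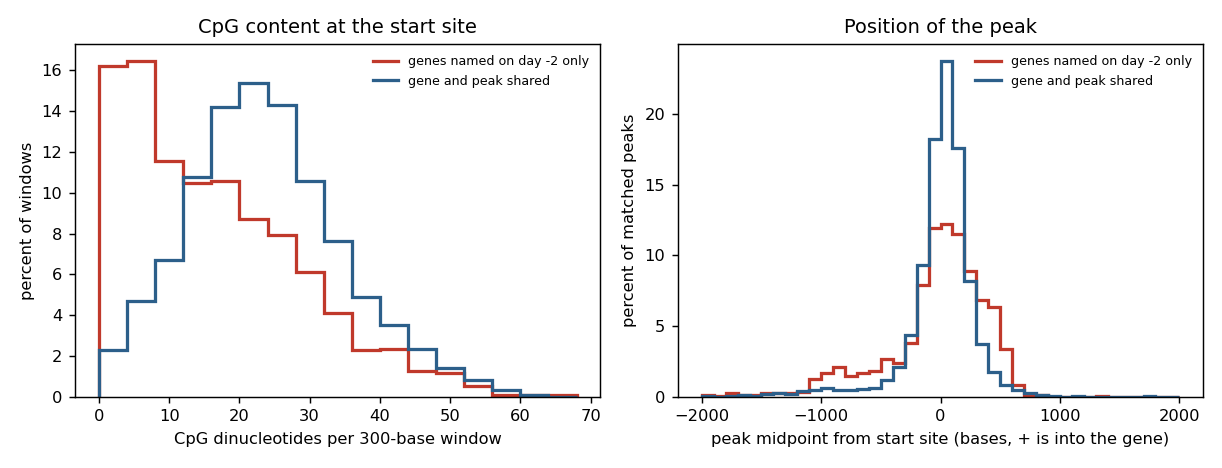
Left, CpG dinucleotides per 300-base start-site window (x axis) against the percent of windows (y axis); right, position of the peak midpoint relative to the start site in bases (x axis) against the percent of matched peaks. Windows of genes named on day -2 only have a median of 14 CpGs against 22 for shared promoters, and their peaks are spread more widely around the start site.

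Short motifs were counted on both strands of the same windows, as a description only. GGGCGG, the core of a GC box, which itself contains a CpG, was in 51.9% of windows of genes named on day -2 only, 70.5% of shared promoters and 35.7% of all RefSeq windows. CCAAT was in 32.9%, 39.7% and 37.4%. The core-promoter element TATAAA was in 9.55%, 6.20% and 13.6%. TGANTCA, a loose form of the AP-1 site in which N is any base, was in 7.37%, 4.26% and 7.81%. For each motif except CCAAT, the genes named on day -2 only lay between shared promoters and all windows.

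A gene named on day -2 only was not always a gene with a closed start site later. Of 1099 start sites of these genes, 379 lay in some peak of day -2, 48 in a peak of day -1 and 54 in a peak of day 0, and the 48 lay in a peak on both later days. For these 48 genes the later start-site peak carried no gene in the authors' table on both days in 25 cases. In the other 23 it carried another gene's name, at Clcn4 on day 0 alone. Their start-site peaks had median counts of 92.6 on day -2, 49.6 on day -1 and 74.8 on day 0, while the peak tied to the gene on day -2 had a median of 10.1. That none of these gene-linked peaks held the start site follows from the rule, since they overlap no later peak. At Hif1a, the oxygen-sensing transcription factor, the start-site peak had mean counts of 144.5, 75.0 and 106.7 on days -2, -1 and 0 with no gene assigned, and the named peak, 7479 bases away, had 7.50. At Fen1, a flap endonuclease of DNA replication, the start site lay in a peak named for Tmem258 on both later days. At these 48 genes a peak lay over the start site on later days, without the gene's name.

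Several groups of genes that are used in few tissues stood above the average share. Of all genes named on day -2, 15.1% were named that day only. That average covers peaks of all counts. Of promoter-class peaks, the share was 62.5% below a mean count of 8 and 61.1% from 8 to 12. Shares at matched count were not computed for the groups here or the lists below. A group's kind and its low counts therefore cannot be told apart. Groups were formed from gene symbols, so a few entries differ in function, such as Foxred2 among the forkhead names. The examples given are among the 3 peaks of highest count in each group. The share was 50.0% for ion channels (58 of 116 genes) and 38.4% for G protein-coupled receptors (48 of 125). Cacna1b, a voltage-gated calcium channel of neurons, had a mean count of 28.0, Vmn1r42, a vomeronasal receptor, had 42.25 at a peak 31306 bases from its start site, and Fzd9, a Wnt receptor, had 30.9. Keratins and related epithelial proteins reached 77.8% (14 of 18), with Krt86, a hair keratin, at 18.75 counts. Cytokines and their receptors reached 33.8% (24 of 71) and cell adhesion genes 33.3% (27 of 81), with the ephrin Efna4 at 35.4 counts. MicroRNA and small RNA genes reached 44.3% (98 of 221), immunoglobulin and T cell receptor segments 52.5% (31 of 59) and named pseudogenes 57.7% (41 of 71). At the low end stood zinc finger transcription factors with 4.00% (14 of 350) and histone genes with none of 55.

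**Figure D3:**
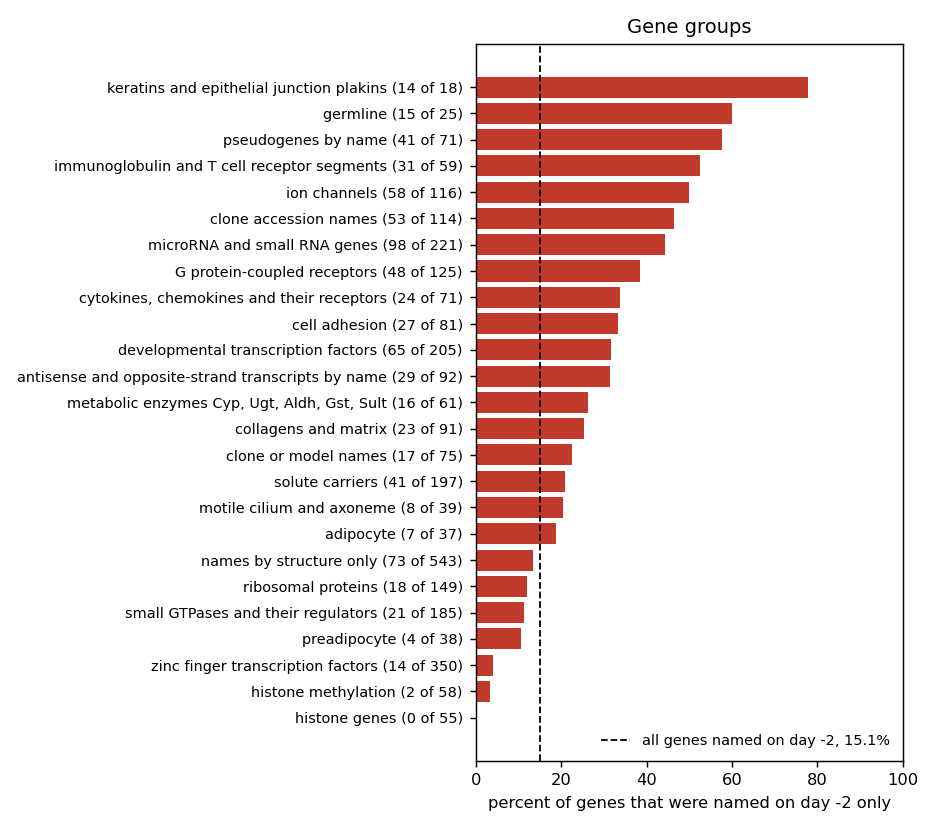
Percent of the genes named on day -2 that were named on that day only (x axis), for each gene group, with the number of such genes and of all named genes in parentheses. The dashed line is the 15.1% of all genes; keratins stand highest at 77.8% and histone genes at 0.

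Developmental transcription factors contributed 65 of 205 genes (31.7%). Hoxc10, a posterior homeobox gene, had 3 peaks with mean counts of 13.5, 9.63 and 38.25, and Pax2, a factor of kidney and brain development, had 1 with 29.4. Myod1 and Myog, the regulators of muscle differentiation, and Des, the muscle intermediate filament, were all named on day -2 only. In this muscle list 3 of 4 genes were named on day -2 and none later. Peaks of Myod1 had mean counts of 8.63 and 12.25. Of the other cell type markers, Csf1r of macrophages, Krt8 of epithelium and Cdh5 of endothelium were named that day only, out of 2 of 6 leukocyte, 1 of 6 epithelial and 2 of 5 endothelial markers named. The defining markers Ptprc, Epcam and Pecam1 were named for no peak of day -2. The preadipocyte or fibroblast list had 8 of 11 genes named on day -2, among them Pdgfrb, Col1a1 and Prrx1, which were also named on both later days. Pdgfra, Fn1 and Cd34 were not named on day -2. The mature adipocyte markers had 1 of 5 genes named on day -2 and 0 named that day only, and Adipoq, Plin1, Fabp4 and Cidec were not named on day -2.

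The adipocyte list had 37 genes named on day -2, of which 7 were named that day only (18.9%), and the preadipocyte list 4 of 38 (10.5%), against 15.1% of all genes named on day -2. The 7 were Aqp7, Gpd1, Klf15, Mogat1, Slc2a4, Srebf1 and Ucp1, and the 4 were Gata2, Gdf10, Ly6a and Sfrp1. At Ucp1, the uncoupling protein of brown fat, normalised counts were 3.72, 15.1, 3.27 and 5.99 with Kdm5c siRNA and 10.1, 10.5, 2.96 and 8.04 with scramble. At Slc2a4, the insulin-responsive glucose transporter, they were 9.92, 13.6, 6.54 and 7.18 with Kdm5c siRNA and 1.27, 2.62, 7.89 and 4.83 with scramble. At Gata2, which restrains fat differentiation, they were 26.0, 30.9, 18.0 and 19.2 with Kdm5c siRNA and 21.5, 22.3, 23.7 and 50.7 with scramble. The arms overlapped at each of the 3. Of the histone methylation list, only Prdm12 and Prdm14 were among these genes (2 of 58 named on day -2, 3.45%). The germline list stood higher, with 15 of 25 (60.0%).

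No peak passed the test for a difference between Kdm5c siRNA and scramble. Over all 1881 peaks, in an edgeR quasi-likelihood fit of all day -2 peaks without a filter on low counts, 0 passed a Benjamini-Hochberg adjusted p of 0.05, where 0.00357% of all peaks did. At an unadjusted p under 0.05, 61 peaks were higher with Kdm5c siRNA (3.24%, against 1.84% of all peaks) and 19 lower (1.01%, against 2.18%). The median log2 fold change was 0.20, against 0.02 for all peaks. Without Kdm5c siRNA replicate 2 the counts were 41 higher and 42 lower (against 2.12% of all peaks each way), and the median was 0.01. Of the 61, 32 still had p under 0.05 without that library, all 61 kept their sign, and 29 were highest in it. Of all 1881 peaks, 44.6% were highest in that library. The 61 were picked from a fit that held the remaining libraries too, so the kept signs follow largely from the choice. At the 1881 peaks, the excess of higher values over lower ones was not seen without that 1 library. DESeq2 called 0 as well, with 56 higher and 15 lower at p under 0.05 (1.88% and 1.70% of all peaks), and without that library 0 were called, with 40 higher and 36 lower (2.05% and 2.02% of all peaks).

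The low-count filter kept 967 of the 1881 peaks. Of these 0 were called, against 0.00404% of all peaks, with 39 higher and 2 lower at p under 0.05 (2.32% and 2.31% of all peaks). The filter compares counts with whole library totals, mitochondrial counts included, and needs only as many libraries as an arm holds. A weak peak can thus be kept because a single arm is high, and the mitochondrial share was lower with Kdm5c siRNA. The split of 39 and 2 may depend on this, which was not tested. With no filter it was 61 and 19 of 1881. Leaving out Kdm5c siRNA replicate 2, still with 0 called (0.006% of all peaks), gave 20 higher and 19 lower of 941 (2.13% and 2.27% of all peaks). Leaving out Kdm5c siRNA replicate 3 gave 97 and 6 of 1157 (3.61% and 3.84% of all peaks). Leaving out scramble replicate 1 gave 59 and 5 of 1236 (2.56% and 2.31%), and scramble replicate 4 gave 60 and 4 of 1170 (2.43% and 2.56%). Scaling by total counts, which mitochondrial reads dominate, moved the median of all peaks by 0.44 and of these peaks to 0.63. It then called 26 peaks, all higher (2.47% of all peaks), with 229 higher and 0 lower at p under 0.05 (25.6% and 0.0243% of all peaks). Without Kdm5c siRNA replicate 2 the same scaling called 0 of 941 peaks (0.002% of all peaks), with 106 higher and 1 lower at p under 0.05 (18.6% and 0.0701% of all peaks) and a median of 0.41 both for these peaks and for all peaks. The normalised counts of the arms did not overlap at 42 peaks that were higher with Kdm5c siRNA (2.23%, against 1.55% of all peaks) and at 9 that were lower (0.478%, against 1.06%). Without Kdm5c siRNA replicate 2 they did not overlap at 52 higher peaks (2.76%, against 2.62%) and 46 lower ones (2.45%, against 2.77%).

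The summed signal showed the same. These peaks held 1.00%, 1.32%, 0.771% and 0.931% of nuclear counts in Kdm5c siRNA replicates 1 to 4, and 0.949%, 0.851%, 0.788% and 0.968% in scramble replicates 1 to 4. The means were 1.01% ± 0.232 (SD, n = 4) and 0.889% ± 0.0849 (SD, n = 4), and without Kdm5c siRNA replicate 2 the former was 0.901% ± 0.119 (SD, n = 3). Gene-less peaks of day -2 alone held 27.9% of counts in that replicate against 20.6% to 23.9% in the others. It was high in both classes, and its shared promoters were the lowest at 32.2%.

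**Figure D4:**
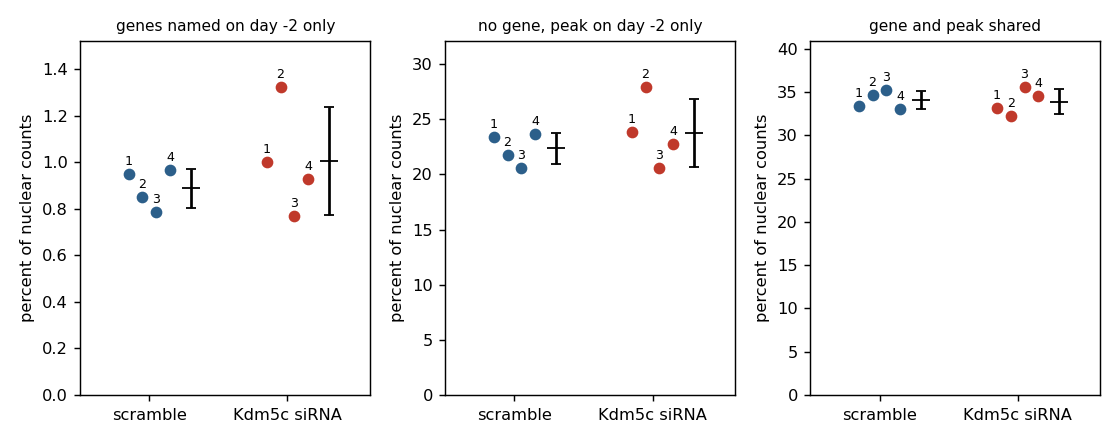
Percent of nuclear counts (y axis) in 3 classes of day -2 peaks for each library, by arm; numbers are replicates, and bars give mean ± SD (n = 4 per arm). Kdm5c siRNA replicate 2 is highest in the first class, at 1.32%, and in the second, at 27.9%.

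The peak with the smallest p lay at Foxn4, a forkhead factor of retinal and spinal cord development whose window is printed above, at chr5:114273748-114274061. Normalised counts were 31.0, 40.7, 27.8 and 27.5 with Kdm5c siRNA and 11.4, 15.7, 8.88 and 9.65 with scramble. All 4 Kdm5c siRNA libraries lay above all 4 scramble libraries. The log2 fold change was 1.50 (SE 0.37, edgeR adjusted p = 0.73), and 1.35 without Kdm5c siRNA replicate 2. The second Foxn4 peak, 744 bases from the start site, had 14.9, 33.9, 12.3 and 5.99 against 13.9, 13.1, 9.87 and 22.5, and its arms overlapped.

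At a further 7 named peaks all Kdm5c siRNA libraries lay above all scramble libraries, and none was called (edgeR adjusted p = 0.98 for each). Elfn2, a synaptic adhesion protein, had 22.3, 21.1, 27.8 and 19.2 with Kdm5c siRNA and 7.59, 15.7, 7.89 and 5.63 with scramble, for a log2 fold change of 1.33 (SE 0.45). Rfx8, a winged-helix factor, had 37.2, 25.6, 20.5 and 16.8 against 6.33, 9.18, 15.8 and 13.7, a log2 fold change of 1.10 (SE 0.41). Slc8a3, a sodium-calcium exchanger, had 24.8, 31.7, 15.5 and 27.5 against 15.2, 14.4, 6.91 and 11.3, a log2 fold change of 1.07 (SE 0.41). At Elfn2 and Rfx8 Kdm5c siRNA replicate 2 was not the highest library, and at Slc8a3 it was. Without it the 3 fold changes were 1.37, 1.08 and 0.92. Plxdc1, Mir7037, Hrasls5 and Dpf1 had log2 fold changes of 1.69, 1.16, 0.85 and 0.61. Without that replicate they were 1.41, 0.90, 0.72 and 0.36, the first from the fit with no filter, since Plxdc1 did not pass it without that library. Raw scramble counts were 4, 1, 7 and 8 at Plxdc1 and 6, 8, 10 and 10 at Mir7037. The filter kept both peaks through the Kdm5c siRNA libraries alone. With no filter their log2 fold changes were 1.62 and 1.09. At Mir7037 the counts were 26.0, 29.4, 13.1 and 12.0 against 7.59, 10.5, 9.87 and 8.04, and its peak lay 905 bases from the hairpin. Under total-count scaling Foxn4 and these 7 peaks passed the threshold, with adjusted p of 0.010 for Foxn4, but without Kdm5c siRNA replicate 2 none did of those tested, which left out Plxdc1.

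At another 7 named peaks all Kdm5c siRNA libraries lay below all scramble libraries, also with edgeR adjusted p = 0.98 each. Cd300lb, whose CpG-poor window is printed above, had 14.9, 10.6, 18.0 and 16.8 with Kdm5c siRNA and 27.8, 24.9, 20.7 and 30.6 with scramble, for a log2 fold change of -0.80 (SE 0.37). Mc3r had 17.4, 14.3, 13.1 and 7.18 against 22.8, 21.0, 21.7 and 20.1, a log2 fold change of -0.71 (SE 0.42). Both stayed lower without Kdm5c siRNA replicate 2, at -0.64 and -0.76. Kcnv1, a silent potassium channel subunit, had 7.44, 6.03, 4.09 and 7.18 against 10.1, 22.3, 7.89 and 12.9. C2cd4a, Kcnv1, Syndig1l, Armcx3 and Eid2 had log2 fold changes of -1.14, -1.10, -0.65, -0.35 and -0.33, and the last 2 were above 0 under total-count scaling. Without that replicate the 5 values were -1.44, -1.09, -0.68, -0.43 and -0.40, the first from the fit with no filter.

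**Figure D5:**
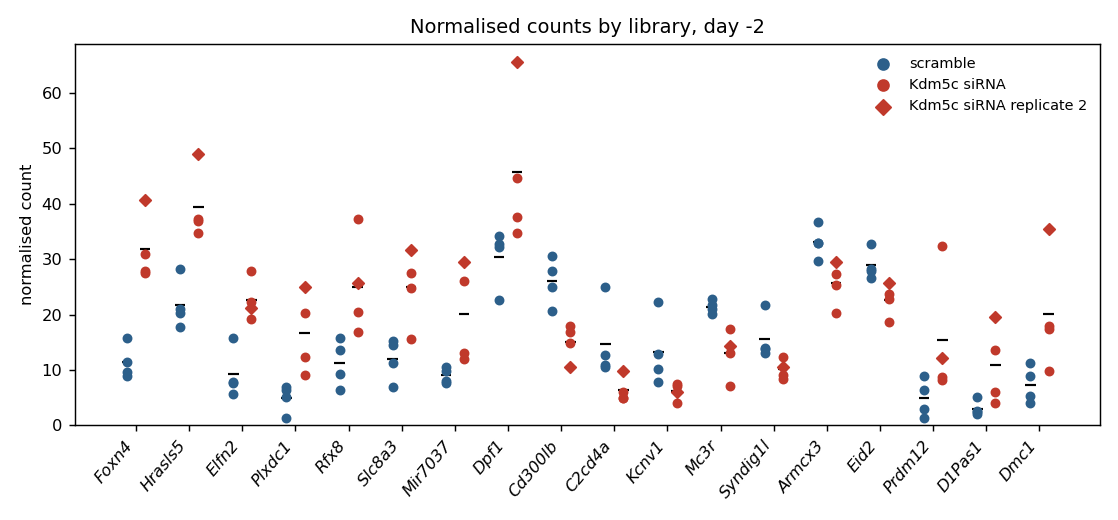
Normalised count (y axis) in each day -2 library for the 15 named peaks whose arms did not overlap and for Prdm12, D1Pas1 and Dmc1 (x axis, gene names); points are libraries, diamonds Kdm5c siRNA replicate 2, and lines the mean of each arm (n = 4). Foxn4 shows 27.5 to 40.7 with Kdm5c siRNA against 8.88 to 15.7 with scramble.

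The germline list gave 17 peaks, of which 0 were called and 2 were higher at p under 0.05 (1.84% of all peaks were). The median log2 fold change was 0.32, and 0.30 without Kdm5c siRNA replicate 2, against 0.02 and -0.01 for all peaks. The peaks were split: 11 of the 17 were above 0, and 9 without that replicate. Values with no filter ran from -0.91 at Zar1 to 1.77 at D1Pas1. Dmc1 had 17.4, 35.5, 9.82 and 18.0 with Kdm5c siRNA and 8.86, 5.25, 3.95 and 11.3 with scramble. The arms overlapped, and replicate 2 was by far the highest. The log2 fold change was 1.43 (SE 0.50, edgeR adjusted p = 0.98), and 0.99 without that replicate. D1Pas1, a testis RNA helicase, had 13.6, 19.6, 4.09 and 5.99 against 5.06, 2.62, 1.97 and 2.41, which did overlap, with a log2 fold change of 1.77 (SE 0.76) without the filter, and 1.35 when replicate 2 was left out too. Without replicate 2, 0 of the 17 had p under 0.05. The synaptonemal complex genes Syce2 and Sycp2 and the piRNA pathway gene Tdrd5 had log2 fold changes of -0.06, -0.44 and 0.20, of which the first 2 were above 0 under total-count scaling and the third below 0 without replicate 2, where the values were -0.10, -0.67 and -0.08. Syce2, at 25.6 to 42.6 in all libraries, was the germline gene of highest count. Prdm12, a factor of sensory neurons, had 8.68, 12.1, 8.18 and 32.3 against 6.33, 1.31, 2.96 and 8.85, where Kdm5c siRNA replicate 4 stood far above the rest. Its log2 fold change with no filter was 1.53, and 1.66 without replicate 2.

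Developmental transcription factors held 76 peaks, of which 0 were called, 6 were higher at p under 0.05 and 0 were lower in the fit with no filter, where 1.84% of all peaks were higher and 2.18% lower. Their median log2 fold change was 0.36, and 0.00 without Kdm5c siRNA replicate 2, when 5 were higher and 1 lower, against 2.12% of all peaks each way. The 6 peaks were at Foxn4, Cdx2, Foxe3, Barx1, Barhl2 and Nkx2-4, named here after their values were seen. Cdx2, an intestinal homeobox factor, had 14.9, 21.9, 17.2 and 9.58 with Kdm5c siRNA and 3.80, 7.87, 2.96 and 2.41 with scramble at 1 of its 2 peaks, so the arms did not overlap. Its other peak had 26.0, 15.8, 15.5 and 19.2 against 16.4, 9.18, 11.8 and 8.04, where they did. Ion channels held 66 peaks with 1 higher and 1 lower, and microRNA and small RNA genes 106 with 3 higher and 1 lower, against the same 1.84% and 2.18%. Their medians were 0.18 and 0.28, and -0.09 and 0.01 without that replicate. The 8 adipocyte-list peaks had none at p under 0.05 and a median of -0.13, and ranged from -0.86 at Srebf1, the regulator of lipid synthesis, to 1.03 at Slc2a4. These 2 peaks had -0.85 and 0.83 without that replicate.

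At 4 of the 5 microRNAs printed above the arms overlapped, and Mir7037 was the exception. The Mir206 peak had 22.3, 11.3, 29.5 and 18.0 with Kdm5c siRNA and 16.4, 38.0, 21.7 and 29.0 with scramble. The Mir141 peak had 11.2, 25.6, 11.5 and 5.99 against 12.7, 3.94, 6.91 and 4.02. The Mir144 peak had 13.6, 29.4, 9.82 and 12.0 against 15.2, 3.94, 8.88 and 6.43. Kdm5c siRNA replicate 2 was the highest library at Mir141 and Mir144 and the lowest at Mir206. The Mir9-3 peak had 27.3, 7.54, 12.3 and 10.8 against 3.80, 6.56, 7.89 and 12.1, and its highest library was Kdm5c siRNA replicate 1.

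The strongest peaks did not separate the arms. Irf5 had normalised counts of 83.0, 130.5, 77.7 and 106.6 with Kdm5c siRNA and 121.4, 64.3, 89.8 and 74.0 with scramble, over a peak of 830 bases. Its mean raw count of 94.0 was the highest of the 1881 peaks, and its log2 fold change was 0.20 (SE 0.17, edgeR adjusted p = 0.98), and 0.03 without Kdm5c siRNA replicate 2. Mta3, a subunit of a chromatin-remodelling and deacetylase complex, Prss22, a serine protease, Tmem229a, a membrane protein, Ret, the receptor of glial-derived growth factors, and Ssh3, a phosphatase of actin regulation, followed. Their mean raw counts were 65.5, 59.1, 52.0, 51.75 and 51.75, and their log2 fold changes lay between -0.18 and 0.41, with Prss22, Tmem229a and Ret below 0 here and above 0 under total-count scaling. Without that replicate the 5 values were -0.07, -0.13, -0.18, -0.46 and 0.23, so Mta3 was then below 0 too. The widest peak, at Tmem229a, spanned 1034 bases. Peaks of this size were the exception among genes named on day -2 only, where 12 peaks had a mean count of 40 to 80 and 1 a higher one.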

How the data were processed

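The authors deposited 1 table of whole-number read counts per peak for each day, and a second table of normalised signal at gene-linked peaks. The submitters' processing notes name DESeq2 1.24.0, HTSeq 0.9.1, MACS2 2.1.1, Bowtie2 2.2.9 and cutadapt 2.3, and the build GRCm38. Not given in the sources used here are the roles and settings of these tools, how libraries were pooled for peak calling, how duplicate and mitochondrial reads and the transposase offset were handled, and whether peak starts count from 0 or 1. The deposited signal equalled each raw count divided by 1 constant per library, within a relative tolerance of 1e-08, so it served for gene names only.

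Peaks were selected from the gene names and the overlaps between days. Both the peaks and the gene lists were chosen with earlier results of these data known. All 84019 day -2 peaks of the 8 libraries were fitted with edgeR 4.0.16 in R 4.3.3 (quasi-likelihood F test, TMM, no covariate, Benjamini-Hochberg), with filterByExpr at a minimum count of 10 and without a filter. DESeq2 1.42.0 was the second tool. Because TMM centres the bulk of peaks, fold changes are relative to that bulk. At about 10 counts per library, counting error alone is wide. The fit was tested on simulated data. Summaries used Python 3.11.15.

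Named genes are peaks kept by the filter whose symbol is not a clone or model name: every called one (there was none), up to 8 per direction with the smallest p among those whose arms did not overlap, the 6 of highest normalised count and the 3 widest. Members of the adipocyte, preadipocyte, histone methylation and germline lists are added. Because the filter can keep a weak peak through a single arm, the picks by p depend on it. Start-site windows and microRNAs came from RefSeq tables of GRCm38.p6. Symbol groups for immune receptor segments, pseudogenes, clone accessions and antisense genes were added after seeing the data. Peak sequences were not analysed here.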

Additional observations from a re-analysis of the deposited data

Results flagged for a closer look

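Among the 108 groups of 4 libraries examined at named peaks, 7 held a library far from the other 3, and chance alone puts about 1 in 20 groups past this limit. At C2cd4a, scramble replicate 2 had a normalised count of 24.9 against 10.5 to 12.7 in the other scramble libraries. At Syndig1l, scramble replicate 4 had 21.7 against 13.1 to 13.9. At Gata2, scramble replicate 4 had 50.7 against 21.5 to 23.7. At Syce3, scramble replicate 2 had 28.9 against 8.88 to 11.4. At the second Nobox peak, scramble replicate 1 was low, at 3.80 against 8.85 to 9.87. At Ly6a, Kdm5c siRNA replicate 4 had 9.58 against 4.91 to 5.28. At Prdm12, Kdm5c siRNA replicate 4 had 32.3 against 8.18 to 12.1. None of the 7 was Kdm5c siRNA replicate 2, the library that stood apart over all the peaks.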

How the results depend on the processing

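At about 10 counts per library, a change at a single peak would have to be large to be seen, and a result that is not called does not show that the arms are equal. Under the low-count filter, 0 peaks were called, as they were with size factors from edgeR's other method (RLE), DESeq2, no filter, mitochondrial peaks left out, and each library left out in turn, whereas total-count scaling called 26 with all libraries. The filter can keep a weak peak through a single arm. The number of peaks at p under 0.05 was 39 higher and 2 lower of 967 tested (2.32% and 2.31% of all peaks). It became 61 and 19 of 1881 with no filter (1.84% and 2.18% of all peaks), 229 and 0 of 967 under total-count scaling (25.6% and 0.0243%), and 56 and 15 of 1881 with DESeq2 (1.88% and 1.70%). Leaving out mitochondrial peaks gave 37 higher and 1 lower of 790 (2.42% and 2.22% of all peaks). Leaving out 1 library gave 20 to 97 higher and 3 to 19 lower, with 941 to 1324 peaks tested. Of all peaks, 1.84% to 3.61% were then higher and 1.86% to 3.84% lower. Alternatives chosen after seeing the data left out Kdm5c siRNA replicate 2 together with another change. They gave 41 and 42 of 1881 with no filter (2.12% of all peaks each way), 40 and 36 of 1881 with DESeq2 (2.05% and 2.02%), and 106 and 1 of 941 with 0 called under total-count scaling (18.6% and 0.0701%). The median log2 fold change of 0.18 became 0.63 under total-count scaling, and -0.02 to 0.32 when 1 library was left out. The cause was not tested. The number of peaks chosen was 1902 when overlaps under 50% were allowed, 1932 by gene alone and 2500 by overlap alone.

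The replicate numbers showed no clear pairing of the libraries, and the labels do not state whether they were paired. Deviations of same-numbered libraries correlated at 0.025, -0.039, 0.16 and -0.016, and 3 libraries in all correlated best with their own number. With the replicate number as a block, 0 of 967 peaks were called, against 5 of all 49455 peaks. At p under 0.05, 35 were higher and 5 lower (2.34% and 2.54% of all peaks), and the median was 0.16.

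Of 516 values for 35 named peaks under 15 settings, 461 kept direction and side of the threshold, 10 passed it under total-count scaling and 45 changed sign, over 16 peaks. Sign changes, as log2 fold changes, were these. Total-count scaling gave Armcx3 0.10, Eid2 0.11, Prss22 0.28, Tmem229a 0.42, Ret 0.29, Gata2 0.14, Mei1 0.51, Sycp2 0.020, Nobox 0.017 and Syce2 0.40. DESeq2 gave Mta3 -0.0050, Aqp7 -0.052 and Klf15 -0.052, and no filter gave -0.016, -0.062 and -0.063 for the same 3 peaks. No filter without Kdm5c siRNA replicate 2 gave Mta3 -0.065, Gpd1 -0.29, Aqp7 -0.46, Klf15 -0.39 and Tdrd5 -0.083. The replicate block gave Klf15 -0.090, and leaving out mitochondrial peaks Mei1 0.014. Over the fits that left out 1 library, the values ran from -0.077 to 0.20 at Mta3, -0.83 to 0.47 at Mei1, -0.29 to 0.49 at Gpd1, -0.47 to 0.32 at Aqp7, -0.39 to 0.20 at Klf15, -0.078 to 0.44 at Tdrd5, -0.41 to 0.019 at Prss22, -0.18 to 0.12 at Tmem229a, -1.15 to 0.037 at Srebf1, -0.54 to 0.040 at Gata2 and -0.17 to 0.10 at Syce2. The cause of these changes was not tested.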
